A study of Homo sapiens with 6 samples.

Results

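Transcripts of 34 lysosomal genes were read out of an RNA sequencing series of the human leukaemia line Kasumi-1. The set was chosen by name, with earlier results of these data known. It holds proteases, enzymes that break down sugars and lipids, proteins of the lysosomal membrane and TFEB, a transcription factor of lysosomal genes. Values were found for 33 of the 34 among 29810 genes; CD68 was not analysed here. Kasumi-1 is an established line of immature myeloblasts that carries the t(8;21) translocation. Control was given to 3 samples and I1, a code-named compound about which the labels say no more, at 0.125 µM to another 3, each for 48 h. All are the same line, and the labels name no other treatment. The labels do not say whether replicates were separate cultures, and p-values therefore reflect no more than the spread among the deposited samples, part or all of which could be technical.

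Lysosomes are acidic compartments in which hydrolases digest proteins, glycans and lipids delivered by endocytosis and autophagy. Most of the hydrolases are made in the endoplasmic reticulum and tagged with mannose 6-phosphate on their way, while heavily glycosylated proteins such as LAMP1 and LAMP2 line the membrane. TFEB and its relatives bind a palindromic E-box, the CLEAR element, in the promoters of many of these genes, and mTORC1 at the lysosomal surface keeps TFEB out of the nucleus when nutrients are plentiful. In myeloid cells, cathepsins also act in granules, where CTSC activates the serine proteases of azurophil granules.

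The promoters of the set were searched for the CLEAR element, since it is what the regulation of these genes is known for. RefSeq windows of 300 bases (build GRCh38.p14; 250 bases before to 50 after an annotated start) were found for 27 of the 34 genes, CD68 included. The full motif, the core TCACGTGA with a G before and a C after it, lay on either strand of a window of 3 of these 27 genes (11.1%), GAA, GALNS and MCOLN1, against 0.421% of all 27305 genes with a window. The core itself lay in 6 (22.2%, against 1.176%), which adds CLN3, CTSA and LAMP1, and the shorter TCACGTG in 8 (29.6%, against 4.49%), which adds CTSD and NEU1. The E-box CACGTG, which every longer motif contains, lay in 9 (33.3%, against 8.775%), CD63 being the ninth. By window in place of gene, the 4 motifs were in 0.353%, 0.98%, 3.711% and 7.256% of 35116 windows. The 27 genes of the set had 40 windows, whose share with a match was not counted. The element was searched for because it is known from genes such as these, so its higher share in the set is description and no independent result. The 27305 genes were not matched to the set in base composition. A match describes letters in a window and no binding was measured. Shown in full are GAA, GALNS and MCOLN1, which hold the full motif, and LAMP1, the most abundant of the others with the core. Capitals mark each match of TCACGTG on either strand, extended to the longest motif there:
GAA (chr17:80101331-80101630, plus strand): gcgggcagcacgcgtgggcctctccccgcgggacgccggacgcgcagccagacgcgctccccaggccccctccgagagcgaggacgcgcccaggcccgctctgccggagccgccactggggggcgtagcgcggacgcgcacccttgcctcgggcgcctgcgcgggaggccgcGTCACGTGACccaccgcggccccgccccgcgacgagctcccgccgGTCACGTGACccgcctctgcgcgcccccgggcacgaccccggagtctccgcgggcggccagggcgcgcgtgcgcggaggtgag
GALNS (chr16:88856898-88857197, minus strand): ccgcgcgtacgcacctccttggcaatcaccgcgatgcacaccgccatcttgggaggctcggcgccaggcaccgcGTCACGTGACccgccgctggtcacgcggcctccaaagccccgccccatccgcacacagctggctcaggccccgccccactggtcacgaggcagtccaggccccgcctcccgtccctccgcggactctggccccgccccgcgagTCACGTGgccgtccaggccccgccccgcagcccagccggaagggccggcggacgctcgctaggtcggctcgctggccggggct
MCOLN1 (chr19:7522374-7522673, plus strand): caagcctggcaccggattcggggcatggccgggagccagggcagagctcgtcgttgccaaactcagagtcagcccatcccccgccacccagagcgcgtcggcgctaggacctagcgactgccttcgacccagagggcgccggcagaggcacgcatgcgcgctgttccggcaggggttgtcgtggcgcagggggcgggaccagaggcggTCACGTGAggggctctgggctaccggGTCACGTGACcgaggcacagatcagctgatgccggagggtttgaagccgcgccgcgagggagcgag
LAMP1 (chr13:113296989-113297288, plus strand): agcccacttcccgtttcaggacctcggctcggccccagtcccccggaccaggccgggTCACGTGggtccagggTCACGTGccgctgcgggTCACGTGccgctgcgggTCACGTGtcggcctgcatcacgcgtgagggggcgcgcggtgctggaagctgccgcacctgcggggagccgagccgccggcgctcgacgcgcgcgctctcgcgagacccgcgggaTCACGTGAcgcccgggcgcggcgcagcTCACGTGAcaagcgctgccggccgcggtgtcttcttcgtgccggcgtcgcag
For the remaining 4 genes 30 bases around the longest match are shown, with that match in capitals, so that the flanks can be compared:
CTSA (chr20:45891085-45891384, plus strand): ggcgccggagtTCACGTGActcgtacacat
CLN3 (chr16:28492025-28492324, minus strand): cgcgggtgctgTCACGTGAtccgacaaacg
NEU1 (chr6:31862772-31863071, minus strand): gatgctgcgtgaTCACGTGggaggagatga
CTSD (chr11:1763878-1764177, minus strand): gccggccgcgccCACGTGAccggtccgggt
Coordinates are those of the whole window. LAMP1 held 6 matches, the most of the set, with 4 of them between 193 and 143 bases before the start and 2 within 29 bases of it. GAA carried the full motif at 2 places, 78 and 33 bases before its start, and MCOLN1 the core 42 bases and the full motif 16 bases before.

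**Figure D1:**
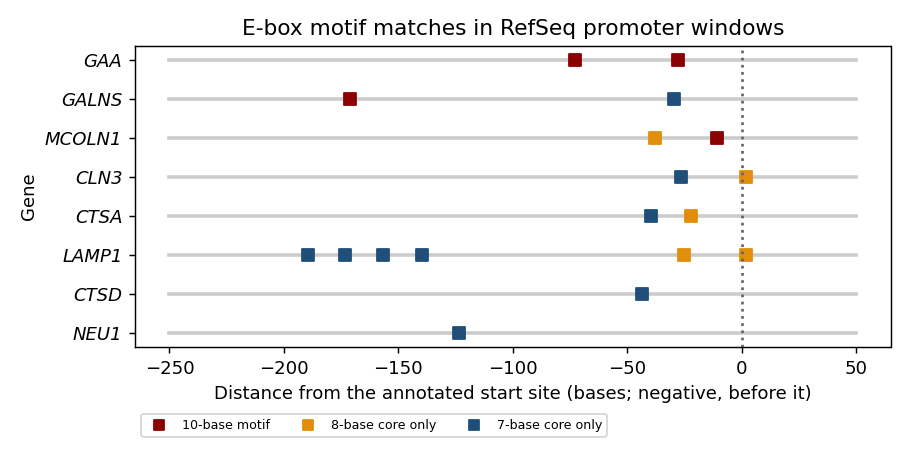
Position of each match in the promoter windows of the 8 genes (rows), in bases from the annotated start site; squares mark the full 10-base motif, the 8-base core alone or the 7-base core alone, and CLN3 is drawn for 1 of its overlapping windows. Most matches lie within 50 bases of the start, while GALNS, LAMP1 and GAA also have matches farther before it and the 1 match of NEU1 lies 127 bases before it.

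FPKM divides the fragments of a gene by its length and by a library total, so that levels of different genes are compared per length. The totals recovered from the table were 17331000 to 18204000 fragments in the controls and 16391000 to 16948000 with I1, and the 29 genes tested below had 54 to 23382 reads per library where whole reads were recovered. All 9 listed markers of the line reached 1 FPKM in 3 or more libraries. Of these, KIT lay between 149 and 203 FPKM and MPO between 6361 and 9392 FPKM, and the others are not reported here. Of 6 monocyte and macrophage markers with values, CD14, MRC1 and MARCO were below 1 FPKM in all libraries and at 0 in some; the summed level of the 6 was 35.5 to 57.2 FPKM in control and 30.0 to 44.4 FPKM with I1, carried by VSIG4, LYZ and CSF1R, and the part of this in the values below was not tested. Control replicate 1 stood apart from the other libraries (-43.8 on the first principal component, against -2.90 to 19.8), and transcripts rich in G and C were lower with I1 over all tested genes (Spearman's rho of log2 fold change and GC content -0.753 across 11899 genes, which are not independent).

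The lysosomal transcripts differed widely in level. PSAP, whose product is cut into the saposins that help enzymes reach their lipids, led with 371 ± 31.6 FPKM in control and 343 ± 15.5 FPKM with I1 (SD, n = 3 each). It was followed by CTSZ, a carboxypeptidase of the cathepsin family, GRN, the progranulin precursor, and GAA, the acid glucosidase that digests glycogen. These 4 genes made up 55.4% to 58.3% of the summed FPKM of the set in every library. In all, 8 genes had a mean of at least 50 FPKM, 13 between 5 and 50, 8 between 1 and 5, and 4 under 1. The summed level was 1318, 1235 and 1161 FPKM in the controls, by replicate number, and 1073, 1129 and 1169 FPKM with I1, or 0.419% to 0.452% of all FPKM in control and 0.402% to 0.420% with I1. The groups overlapped in both quantities, with control replicate 1 highest and I1 replicate 1 lowest.

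**Figure D2:**
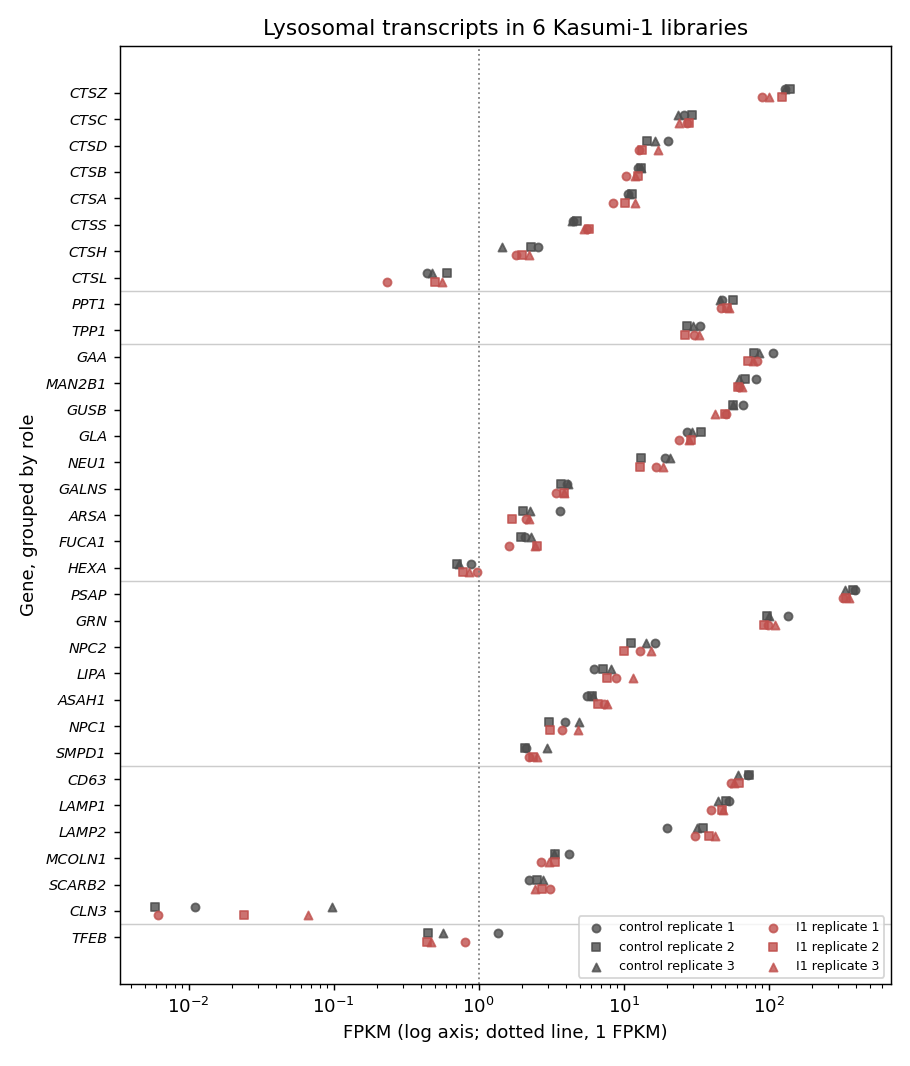
FPKM on a log axis for the 33 genes with values (rows, grouped by role and ordered by mean level), with 1 point per library; grey points are control, red points I1, shapes give the replicate number and the dotted line is 1 FPKM. Within a gene the 6 libraries mostly lie close together, and PSAP is highest and CLN3 lowest.

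No lysosomal gene differed between I1 and control past the threshold. Of the 33 genes, 29 were tested, all of them at 1 FPKM or more in each of the 6 libraries, and 0 rose and 0 fell at an adjusted p under 0.05 by limma (0.0336% of all 11913 tested genes passed). In bulk samples fewer cells of a kind and less RNA per cell cannot be told apart. At an unadjusted p under 0.05, 2 were lower, CTSZ and GUSB, and 0 higher, against 2.77% of all tested genes lower and 6.80% higher. The log2 fold change, I1 minus control on the scale of log2(FPKM + 1), was below 0 for 20 of the 29 (45.5% of all tested genes), with a median of -0.11 against 0.03 over all tested genes and a range of -0.36 to 0.38. The control and I1 libraries did not overlap for 3 genes that were lower, CTSZ, CTSB and GUSB (8.74% of all tested genes), and for 2 that were higher, CTSS and ASAH1 (12.9%). By same-numbered pairs the medians of the 29 were -0.26, -0.07 and 0.06, and 22, 20 and 13 genes were lower with I1, so the third pair went the other way. With the replicate number as a block the smallest adjusted p of a member was 0.140, and 7 genes had an unadjusted p under 0.05 (27.1% of all tested genes did): CTSZ, GAA, GUSB and CD63 lower, LIPA, ASAH1 and LAMP2 higher.

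Of the 7 tested cathepsins, counting CTSA, the protective protein of the neuraminidase complex, 5 were below 0 and 2 above. CTSZ (ENSG00000101160; chromosome 20 of hg38, 58995185 to 59007247, minus strand) had 129, 141 and 130.4 FPKM in control replicates 1 to 3, against 90.2, 123 and 101 FPKM in the I1 replicates of the same order. All I1 libraries lay below all controls, with I1 replicate 1 lowest. Its mean was 21.6% lower, with a log2 fold change of -0.36 ± 0.142 (SE) and an adjusted p of 0.467 by limma. CTSB, a cysteine protease with endopeptidase and carboxypeptidase activity, had 12.5, 13.1 and 13.2 FPKM in the controls against 10.3, 12.5 and 12.0 with I1. These groups did not overlap either, but control replicate 1 and I1 replicate 2 were nearly equal (log2 fold change -0.15, limma adjusted p = 0.545). CTSS, a cysteine protease that cuts the invariant chain of MHC class II, went the other way, with 4.51, 4.80 and 4.43 FPKM in the controls against 5.56, 5.79 and 5.35 with I1. Every I1 library was above every control, by a log2 fold change of 0.23 ± 0.114 (SE) (limma adjusted p = 0.467). CTSD, the main aspartic protease of lysosomes, had 20.1, 14.5 and 16.4 FPKM in the controls against 12.8, 13.5 and 17.3 with I1, and control replicate 1 alone was above the highest I1 library. CTSC, the activator of granule proteases, had 26.6 ± 2.99 FPKM in control and 26.5 ± 2.06 FPKM with I1 (SD, n = 3 each), a log2 fold change of 0.00. CTSA and CTSH, an aminopeptidase, had log2 fold changes of -0.11 and -0.03, with groups that overlapped. CTSL, a cysteine endopeptidase, did not reach 1 FPKM in any library, with 0.441, 0.610 and 0.478 FPKM in control and 0.232, 0.499 and 0.559 FPKM with I1 from 9 to 25 reads, and was not tested.

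The 2 hydrolases lost in infantile and late infantile neuronal ceroid lipofuscinosis differed between the groups by less than the standard error. PPT1, which removes palmitate from proteins, had 50.3 ± 5.37 FPKM in control and 50.4 ± 3.18 FPKM with I1 (SD, n = 3 each). TPP1, a tripeptidyl peptidase, had 30.5 ± 3.07 FPKM in control and 30.0 ± 3.35 FPKM with I1 (SD, n = 3 each). Their log2 fold changes were 0.01 and -0.02, against SEs of 0.123 and 0.133. PPT1 shares 23.4% of its exon bases with CAP1 (mean 38.4 FPKM) on the other strand. In the same way CTSA shares 3.4% with PLTP (mean 76.7 FPKM) and 17.7% with NEURL2 (0.635 FPKM), and NPC1 6% with RMC1 (5.3 FPKM). Some other members also share exon bases with genes on the other strand. No source used here says if counting respected strand.

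Among 8 tested glycosidases and sulfatases 7 were below 0. GUSB (ENSG00000169919; chromosome 7 of hg38, 65960684 to 65982314, minus strand), the beta-glucuronidase, had 66.2, 56.7 and 56.5 FPKM in control replicates 1 to 3, against 50.7, 49.9 and 42.4 FPKM in the I1 replicates of the same order. All I1 libraries were below all controls, and the mean was 20.3% lower. Its log2 fold change of -0.32 ± 0.127 (SE) had a limma adjusted p of 0.467. GAA had 107, 78.8 and 86.0 FPKM in the controls against 82.4, 71.7 and 78.3 with I1, lower in each same-numbered pair, but I1 replicate 1 was above control replicate 2. GLA, which removes galactose from glycolipids, and NEU1, the lysosomal sialidase, were also lower in 3 of 3 pairs with overlapping groups (log2 fold changes -0.15 and -0.12). The share of all tested genes that kept their direction in 3 of 3 pairs is not given here, so such agreement is description only. NEU1 followed the replicate number more than the treatment, with 19.3, 13.2 and 20.8 FPKM in the controls against 16.7, 12.9 and 18.8 with I1. ARSA, the arylsulfatase that acts on sulfatide, had 3.62, 2.01 and 2.26 FPKM in the controls against 2.12, 1.69 and 2.22 with I1; control replicate 1 was far above the others. MAN2B1, the acid mannosidase, had 70.8 ± 9.59 FPKM in control and 63.4 ± 2.17 FPKM with I1 (SD, n = 3 each), and GALNS, a sulfatase acting on keratan sulfate, 3.96 ± 0.228 FPKM in control and 3.73 ± 0.249 FPKM with I1 (SD, n = 3 each). FUCA1, the fucosidase, had the only value above 0 of the 8 (0.02). HEXA, the alpha chain of beta-hexosaminidase, was under 1 FPKM in all libraries (0.893, 0.709 and 0.735 FPKM in the controls against 0.982, 0.781 and 0.854 with I1), higher in 3 of 3 pairs, and was not tested.

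Genes of lipid breakdown and export split, with 4 of 7 below 0. LIPA, the acid lipase that frees cholesterol from its esters, had 6.27, 7.20 and 8.19 FPKM in the controls against 8.78, 7.64 and 11.7 with I1. It was higher in each pair, yet I1 replicate 2 was below control replicate 3, and the log2 fold change of 0.32 ± 0.171 (SE) had a limma adjusted p of 0.467. ASAH1, the acid ceramidase, had 5.57, 6.04 and 6.11 FPKM in the controls against 7.37, 6.68 and 7.67 with I1, and each I1 library was above each control (log2 fold change 0.25 ± 0.116 (SE), limma adjusted p = 0.467). SMPD1, the acid sphingomyelinase that makes the ceramide which ASAH1 degrades, had 2.39 ± 0.494 FPKM in control and 2.38 ± 0.138 FPKM with I1 (SD, n = 3 each), a log2 fold change of 0.00. PSAP had 397, 382 and 336 FPKM in the controls against 327, 343 and 358 with I1, and GRN 135, 97.1 and 101 FPKM in the controls against 99.1, 92.8 and 110.0 with I1. Both overlapped, with log2 fold changes of -0.11 and -0.13, and in GRN control replicate 1 alone was high. NPC1 and NPC2, which pass cholesterol out of the lysosome, differed by -0.02 and -0.11. NPC1 had 3.92, 3.07 and 4.89 FPKM in the controls against 3.74, 3.10 and 4.87 with I1, again grouped by replicate number.

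The 2 major membrane glycoproteins had differences of opposite sign, neither past the threshold. LAMP1 had 53.0, 50.4 and 45.0 FPKM in the controls against 39.8, 47.7 and 48.6 with I1, and LAMP2, which also serves chaperone-mediated autophagy, had 19.8, 35.5 and 32.2 FPKM in the controls against 31.0, 39.0 and 42.5 with I1. LAMP2 was higher with I1 in each pair, but control replicate 1 was far below every other library and I1 replicate 1 was below both other controls. Their log2 fold changes were -0.12 ± 0.129 (SE) and 0.38 ± 0.225 (SE), with limma adjusted p of 0.626 and 0.474; without control replicate 1 that of LAMP2 was 0.13. The ratio of LAMP1 to LAMP2 was 2.67, 1.42 and 1.40 in the controls, by replicate number, and 1.29, 1.22 and 1.14 with I1, a ratio chosen after its values were seen. CD63, a tetraspanin of lysosomes and granules, had 72.2, 72.9 and 61.0 FPKM in the controls against 55.0, 62.7 and 57.2 with I1, lower in each pair, with control replicate 3 below I1 replicate 2 (log2 fold change -0.23 ± 0.123 (SE), limma adjusted p = 0.467). MCOLN1, the calcium channel through which lysosomes signal to TFEB, had 3.62 ± 0.497 FPKM in control and 3.04 ± 0.322 FPKM with I1 (SD, n = 3 each) and was lower in 3 of 3 pairs. SCARB2, a sorting receptor of the lysosomal membrane, had a log2 fold change of 0.10. CLN3, a membrane protein lost in juvenile neuronal ceroid lipofuscinosis, had 0.00585 to 0.0975 FPKM from 1 to 17 reads. It shares 25.2% of its exon bases with the annotated gene AC138894.1 on the same strand, as HEXA does to 4.9% with AC009690.1 CTSD to 41.7% with AC068580.4, MAN2B1 to 13.1% with AC010422.3 and 8.1% with AC010422.5, TPP1 to 11.6% with AC091564.7 and MCOLN1 to 4.3% with AC008878.2, and no source used here says how reads of shared bases were assigned, which leaves these levels uncertain.

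TFEB itself was low. It had 1.35, 0.450 and 0.571 FPKM in control replicates 1 to 3, against 0.799, 0.439 and 0.469 FPKM in the I1 replicates of the same order, from 42 to 139 reads. Only control replicate 1 exceeded 1 FPKM, and the gene was not tested, though it was lower with I1 in 3 of 3 pairs. Of its relatives, TFE3 was the most abundant with 10.2 ± 2.09 FPKM in control and 8.62 ± 1.23 FPKM with I1. TFEC had 2.85 ± 1.33 and 4.93 ± 1.60 FPKM (log2 fold change 0.66, limma adjusted p = 0.467; 0.19 after a correction for GC content). MITF was listed at 0.162 ± 0.0404 and 0.272 ± 0.0894 FPKM, too low to be tested.

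**Figure D3:**
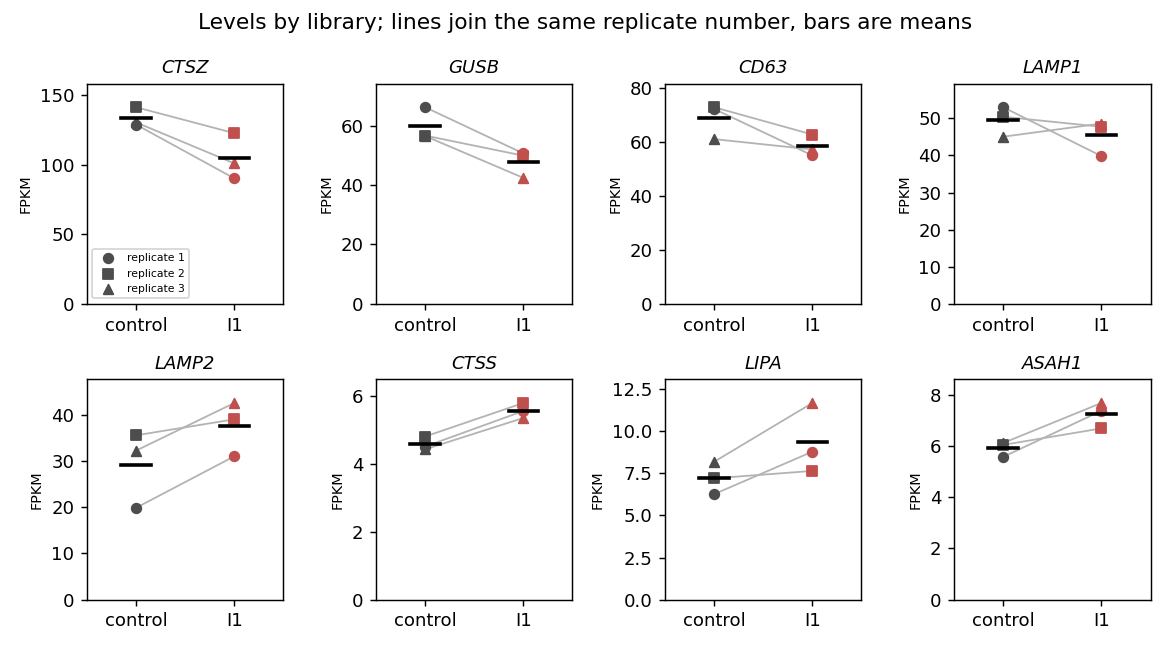
FPKM of 8 lysosomal genes in control (grey) and I1 (red) libraries, with axes from 0, lines joining the same replicate number and bars at the group means (n = 3 each). CTSZ and GUSB are lower and CTSS and ASAH1 higher in every I1 library, while LAMP2 is set apart mainly by control replicate 1.

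**Figure D4:**
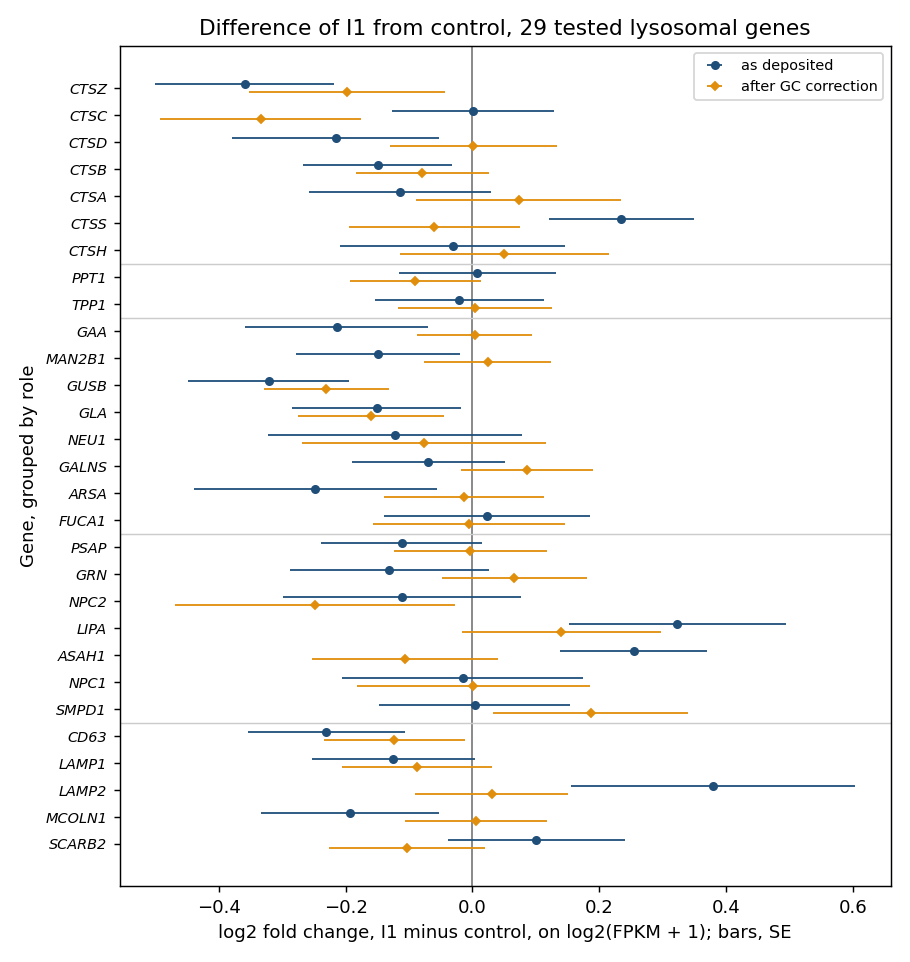
Log2 fold change of I1 minus control with its standard error for the 29 tested genes (rows, grouped by role), from the deposited FPKM (blue circles) and after a correction of each library for GC content (orange diamonds). No gene passed an adjusted p of 0.05 in either, and most diamonds lie nearer to 0.

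The sign of the difference went with the base composition of the transcript. GC content of the longest transcript ran from 37.3% in ASAH1 to 66.0% in ARSA, with a median of 52.8% over the 29 genes against 47.9% over all tested genes. Of the 10 tested members under 50% GC, 2 were below 0 (median log2 fold change 0.06), and of the 19 at 50% or more, 18 were (median -0.13). Spearman's rho of log2 fold change and GC content was -0.748 over the 29 genes, which share the same 6 libraries, close to that over all tested genes. The genes under 50% GC lay lowest in control replicate 1, by a median of -0.10 from their own 6-library mean on the log2 scale, and the GC-rich genes highest there, by 0.19.

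After each library was corrected for GC content, 16 of the 29 genes were below 0 (50.5% of all tested genes) and the median was -0.01. The correction takes no account of group, so it also takes out treatment differences that run with GC content over all genes. It uses the GC content of the longest transcript, which may not be the one expressed. Spearman's rho of the corrected log2 fold change and GC content was 0.383 over the 29 genes, against -0.008 over all tested genes. The relation within the set thus changed sign. Of the 10 tested members under 50% GC, 8 were below 0 after the correction (median -0.10). Of the 19 at 50% or more, 8 were (median 0.00). LAMP2 went from 0.38 to 0.03, ASAH1 from 0.25 to -0.11, CTSS from 0.23 to -0.06, GAA from -0.21 to 0.00 and ARSA from -0.25 to -0.01. CTSZ kept -0.20 and GUSB -0.23 ± 0.098 (SE), the 1 member with an unadjusted p under 0.05 in that fit (5.13% of all tested genes), and neither passed over all genes (limma adjusted p = 0.951 and 0.948). CTSC, at 0.00 before, was at -0.33 ± 0.158 (SE) after it. With the GC correction and the replicate number as a block, 3 members had an unadjusted p under 0.05, CTSC, CTSZ and GUSB, all lower (16.1% of all tested genes in either direction), with limma adjusted p of 0.226, 0.238 and 0.226.

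**Figure D5:**
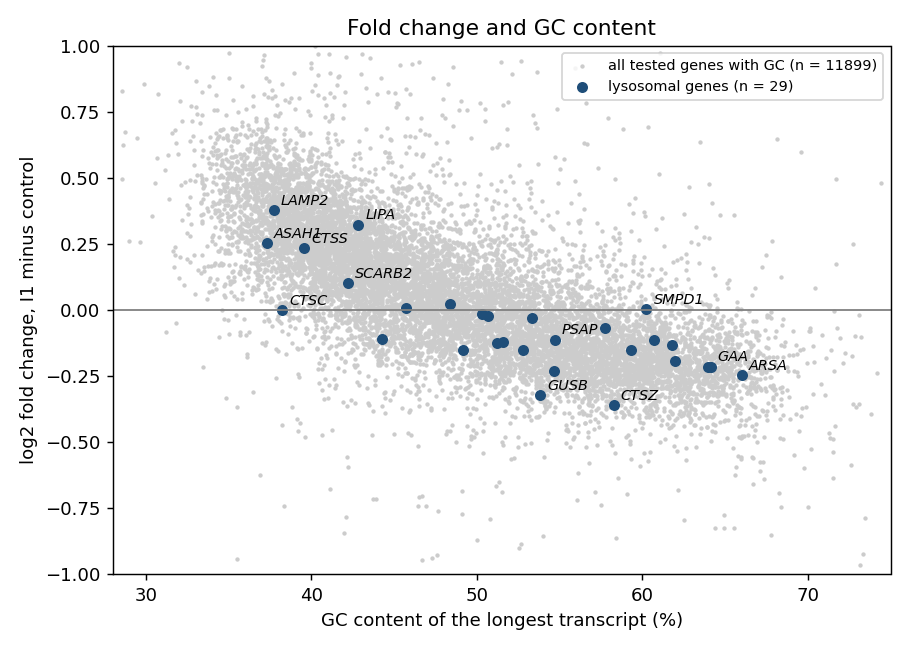
Log2 fold change of I1 minus control against GC content of the longest transcript for all tested genes (grey, n = 11899, of which 79 lie outside the axes) and the 29 lysosomal genes (blue). The blue points follow the grey cloud from LAMP2 and LIPA at the upper left to ARSA at the lower right, with CTSC below it.

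The genes with the shorter TCACGTG in a promoter window were compared with those whose windows lacked it, before and after the correction. The 7 members without a window (CTSB, CTSS, ARSA, HEXA, PSAP, ASAH1 and LAMP2) are in neither group. All 7 tested genes with TCACGTG in a window (CTSA, CTSD, GAA, GALNS, LAMP1, MCOLN1 and NEU1) had log2 fold changes below 0, between -0.22 and -0.07, with a median of -0.12. Of the 16 tested genes with a window but no TCACGTG, 10 were below 0, with a median of -0.03. The median GC content of the transcripts was 60.7% in the first group and 50.5% in the second. After the correction for GC content 2 of the 7 and 9 of the 16 were below 0, with medians of 0.00 and -0.05.

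No other listed gene of the lysosome passed either. Of 135 genes in 9 further lists, 121 were tested, 0 passed an adjusted p of 0.05 by limma in either direction, and 69 were below 0 (45.5% of all tested genes; median -0.05, and -0.02 after the GC correction). At an unadjusted p under 0.05, 6 were lower, among them TCIRG1, AP1B1, LAMTOR2 and CST3 (2.77% of all tested genes), and 4 higher, among them MFSD8, CD164 and FNIP1 (6.80%), each with a limma adjusted p of 0.467. The GC correction took TCIRG1 from -0.32 to -0.09, AP1B1 from -0.32 to -0.15, LAMTOR2 from -0.31 to -0.24, MFSD8 from 0.42 to 0.04 and FNIP1 from 0.56 to 0.25 on the log2 scale. Of 25 tested further hydrolases 16 were below 0, and CTSG, a granule protease, was the most abundant (164 ± 36.0 FPKM in control and 146 ± 15.9 FPKM with I1). Of 15 subunits of the vacuolar ATPase, the pump that acidifies the lysosome, 9 were below 0, and TCIRG1 had 13.1 ± 1.10 and 10.3 ± 0.544 FPKM. Of 12 genes of mannose 6-phosphate tagging and sorting 7 were below 0; the receptor M6PR had 55.4 ± 1.78 and 48.3 ± 2.64 FPKM. CD164, a sialomucin of lysosomes and the cell surface, had 23.1 ± 6.71 and 36.0 ± 1.68 FPKM, and its log2 fold change of 0.66 went to 0.24 after the GC correction. Among 16 genes of mTORC1 at the lysosome 6 were below 0 and 10 above, with LAMTOR2 of the Ragulator scaffold at 24.5 ± 1.16 and 19.7 ± 2.34 FPKM and FNIP1, a partner of folliculin, at 4.88 ± 1.53 and 7.52 ± 1.21 FPKM. Of 14 genes of lysosome positioning and fusion 8 were below 0, and RAB7A, the GTPase of late endosomes, had 103 ± 8.74 and 104 ± 6.38 FPKM. All 4 cystatins, inhibitors of the cysteine cathepsins, were below 0. CST3, cystatin C, had 16.5 ± 0.591 and 12.5 ± 1.95 FPKM, and its log2 fold change went from -0.39 to -0.48 with the GC correction (limma adjusted p = 0.826 there). Of 16 autophagy genes 9 were below 0, and the cargo receptor SQSTM1 had 14.4 ± 2.83 and 12.9 ± 3.01 FPKM.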

How the data were processed

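Per the labels' protocols, Trizol was used to extract RNA from the 6 Kasumi-1 samples, and libraries were prepared with a stranded TruSeq mRNA kit. Trimmomatic, HISAT2, Cufflinks and HTSeq and the build hg38 are named in the submitters' processing notes, while versions, roles, annotation and use of strand were not given in the sources used here. FPKM values of 29810 genes, in 1 table, are what the authors deposited. Its name speaks of other cell lines and of another compound, I3, but its 6 columns match the titles of the 6 samples; columns not used numbered 0. Symbols, positions, exon lengths and GC content came from GENCODE release 29, which matched 29703 genes. Multiplying FPKM by exon length and a library total gave whole reads within 0.05 for 95.9% of these genes. Each library total was itself fitted so that these products fell near whole numbers. A read per kilobase was worth 0.0549 to 0.0610 FPKM.

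The groups were compared with limma 3.58.1 (R 4.3.3, intensity trend) on log2(FPKM + 1), a scale that understates changes of low genes. Tested were the 11913 genes that reached 1 FPKM in 3 or more libraries, at a 2-sided threshold of 0.05 on the Benjamini-Hochberg adjusted p. Python 3.11.15 prepared the tables. The fit was also run on simulated data without a GC effect or replicate pairing, so that run does not cover these features of the libraries. The GC correction subtracted, per library, a loess curve (span 0.3) of deviations from the gene mean. Replicates of a group differed by more than counting error (chi-square of 21.5 to 73.3 per degree of freedom). Same-numbered samples deviated together from their group means (correlations of 0.476, 0.457 and 0.412, against -0.348 to -0.0987 for other numbers). Deviations within a group sum to 0, so the values for same and other numbers are not independent. The sample titles name no pairing, and the numbers were used as pairs on this ground alone. The fit whose values are printed has no block; values from a blocked fit are named as such, and given where the block changed a call or moved a count by over 1.5 times. All members are named; of other lists, those with an unadjusted p under 0.05 or the highest levels, some of which are not reported here. Members and lists were chosen with earlier results of these data known. The other settings were other pseudocounts (0.1 and 0.5), no filter, a mean of at least 5 FPKM, 2 scalings, the block, the GC correction, array weights, protein-coding genes alone and leaving out each library.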

Additional observations from a re-analysis of the deposited data

How the results depend on the processing

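In all 17 other settings 0 members passed the adjusted p, the smallest being 0.140 for CTSZ with the replicate block. The number of members below 0 stayed within 1.5-fold, and was between 18 and 23 without single libraries. The median log2 fold change of -0.11 went to -0.01 with the GC correction. Leaving out single libraries moved it between -0.18 and -0.04. These medians stayed within the spread of the pair medians (-0.26, -0.07 and 0.06), which is too wide to detect a drop to 0. Over all genes 4 passed by limma (1140 at an unadjusted p under 0.05), 6 with the replicate block, 0 with pseudocounts of 0.1 or 0.5, with no filter, with a mean of at least 5 FPKM, with the GC correction or with protein-coding genes alone, 1 with the GC correction and the replicate block, 2 with quantile normalization, 16 with array weights and 0 to 2 without single libraries. Members at an unadjusted p under 0.05 numbered 2, and 7 with the replicate block, 3 with the GC correction and the replicate block, 4 with no filter or array weights, 1 with quantile normalization or the GC correction, and 0 to 2 without single libraries: 1 without control replicate 1 or I1 replicate 1 and 0 without control replicate 3 or I1 replicate 3. The GC correction, with or without the replicate block, changed the sign of 16 of 29 members, 11 of them by more than 1 SE, which took CTSA to 0.073, CTSC to -0.33, CTSD to 0.0012, CTSS to -0.060, GAA to 0.0038, GALNS to 0.086, MAN2B1 to 0.024, ASAH1 to -0.11, GRN to 0.066, SCARB2 to -0.10 and MCOLN1 to 0.0060. Array weights took CTSH to 0.23 and SMPD1 to -0.16. The signs of 9 members (ARSA, CD63, CTSB, CTSZ, GLA, GUSB, LAMP1, LAMP2 and LIPA) held in every setting that tested them. Few reads limit what can be said of CTSL and CLN3, with at most 25 in a library.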
